A study of Mus musculus with 47 samples.

Results

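Genes of the extracellular matrix were examined in liver and in spermatozoa of mice whose fathers or grandfathers either lacked or carried Scml2, an X-linked gene for a Polycomb protein of the male germline. Members were taken by symbol: every gene named as a collagen chain (Col, a number, a, a number), 44 genes, and fibronectin (Fn1), Sparc, lumican (Lum), fibrillin (Fbn1) and biglycan (Bgn), which gave 49 of the 23416 genes counted. The set was chosen by measured sperm values: these genes, led by Fn1, had been seen to stand apart in spermatozoa of the 3 groups, so the sperm values below are a description of what chose them. Calls from the fits across all genes are counted for the members, also under alternative processing, and nothing is read from them. Counts of reads per gene were available for 10 libraries, 2 per group. Ctrl-F1 males were fathered by wild-type C57BL/6 littermates and KO-F1 males by Scml2-KO C57BL/6 males, both through intracytoplasmic injection (ICSI) of testicular sperm into BDF1 oocytes, and their background strain is labelled BDF2. KO-F2 males, labelled BDF3, were born from natural mating of KO-F1 males with C57BL/6 females. All males were 8 to 12 weeks old. Because Scml2 lies on the X chromosome, KO-F1 sons did not inherit the deletion, so none of the animals sequenced was a Scml2 knockout by descent through the father. Liver libraries came from poly(A) RNA of the whole tissue, and sperm libraries from amplified cDNA of motile sperm that had swum up from the cauda epididymis. No Ctrl-F2 group was analysed here, and a sequencing run is named for the KO-F2 libraries alone, so generation, way of conception, background and run cannot be told apart there.

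The extracellular matrix is the protein scaffold outside cells. Fibrillar collagens (types I, II, III, V, XI, XXIV and XXVII) build the load-bearing fibres, FACIT collagens decorate their surface, type IV collagen forms the sheet of basement membranes, and type VI collagen forms beaded filaments around cells. Fibronectin is a dimeric glycoprotein that is bound by integrins. Hepatocytes secrete a soluble form of it into blood plasma, while fibroblasts and macrophages make a cellular form. Sparc binds collagen and modulates the contact of cells with matrix, biglycan and lumican are small leucine-rich proteoglycans that bind collagen fibrils, and fibrillin is the core of the microfibrils of elastic tissue. In the male tract the stroma of testis and epididymis is among the sources of these proteins. Mature spermatozoa transcribe little of anything, so that reads in a sperm library can come from stored RNA or from other cells collected with the sperm.

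Liver libraries totalled 11339729 to 14278900 counts, F1 sperm libraries 1503733 to 2778171, and the KO-F2 sperm libraries 11462105 and 8384266. The limit of detection was set at 3 counts, which is 0.21 to 0.265 CPM (reads of a gene over the total of its library) in liver, 1.08 to 2.00 CPM in F1 spermatozoa, and 0.262 and 0.358 CPM for KO-F2 spermatozoa. Hepatocyte albumin (Alb) had 964704 to 1172746 counts in each liver library and the protamine gene Prm2 had none there. In spermatozoa Prm2 had 17733 to 560900 counts. The ribosomal repeat Rn45s took 0.636 to 1.59% of liver counts, 15.7 to 28.7% of F1 sperm counts, and 13.3 and 3.52% of KO-F2 sperm counts. Scml2 itself had 0 counts in all 4 livers, and in spermatozoa 0 and 18 for Ctrl-F1, 0 and 4 for KO-F1, and 6 and 9 for KO-F2, so these libraries cannot check the labels by that gene. Replicate libraries had a Pearson correlation across genes of 0.991 and 0.993 in liver, 0.859 and 0.904 in F1 spermatozoa, and 0.974 in KO-F2 spermatozoa, on log2(CPM + 1).

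Every one of the 49 matrix genes had a count in at least 1 of the 10 libraries. In the 4 livers 42 of them had a count and 22 had 10 or more counts in each library. The 4 F1 sperm libraries held a count for 41 and 10 or more in each for 10, and the 2 KO-F2 sperm libraries held a count for 47 and 10 or more in each for 27. The larger KO-F2 totals bear on these last numbers. All matrix genes together made up 2217 and 2081 CPM of the Ctrl-F1 livers and 1848 and 2051 CPM of the KO-F1 livers. In spermatozoa the sums were 672 and 1196 CPM for Ctrl-F1, 730 and 1332 CPM for KO-F1, and 525 and 948 CPM for KO-F2, so the groups overlapped in their totals while their make-up differed. Fn1 was 0.123 and 0.222% of all matrix counts in Ctrl-F1 spermatozoa, 0.74 and 0.36% for KO-F1, and 47.3 and 47.9% for KO-F2. Without Fn1 the sums were 672 and 1193 CPM for Ctrl-F1, 724 and 1327 CPM for KO-F1, and 277 and 494 CPM for KO-F2, and the KO-F2 libraries lay below all 4 F1 libraries.

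**Figure D1:**
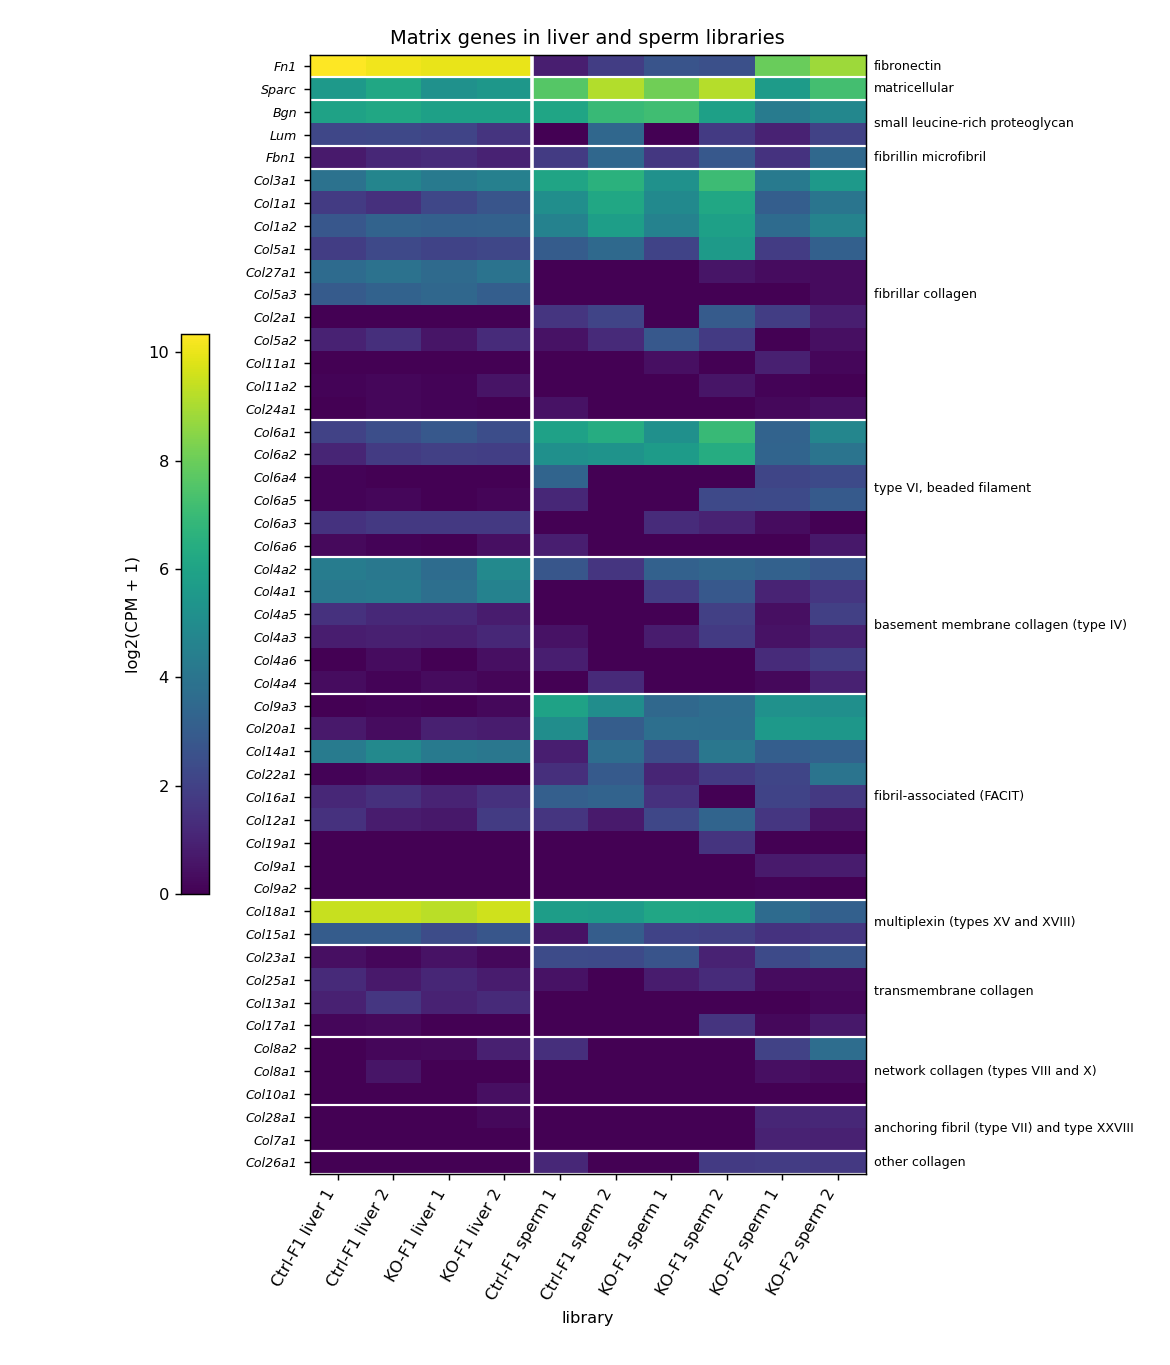
Level of each of the 49 matrix genes (rows, grouped by class) in the 10 libraries (columns), as log2(CPM + 1) by colour, with white lines between classes and between tissues. Fn1 and Col18a1 are bright in liver, Sparc leads in F1 spermatozoa, and the row of Fn1 is dark in the 4 F1 sperm libraries and brighter in the 2 KO-F2 sperm libraries.

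Per kilobase of exon, the order of the genes differed between the tissues. In Ctrl-F1 liver Fn1 was highest with 102 CPM per kb, followed by Col18a1 with 99.5, Sparc with 15.2 and Bgn with 10.7 CPM per kb. In KO-F1 liver Col18a1 (98.5 CPM per kb) and Fn1 (87.2 CPM per kb) changed places. The libraries of both genes overlapped in Ctrl-F1, so their order there is not beyond the spread. Spermatozoa of Ctrl-F1 had Sparc first with 99.5 CPM per kb, then Col6a1 with 16.2, Bgn with 15.7 and Col9a3 with 12.0. The same first 3 genes led in KO-F1 spermatozoa, with 113, 18.0 and 16.3 CPM per kb, and Col18a1 followed with 9.57. KO-F2 spermatozoa had Fn1 first with 30.1 CPM per kb, then Sparc with 26.7, Col9a3 with 9.10, Col20a1 with 8.88 and Col6a1 with 3.96. Fn1 was 23rd of the 49 in Ctrl-F1 and 19th in KO-F1 spermatozoa. In KO-F2 the libraries of Fn1 and Sparc overlapped per kilobase.

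Fibronectin set KO-F2 spermatozoa apart. Fn1 (chromosome 1, 71585520 to 71653200, minus strand, GRCm38) had 2 and 4 counts for Ctrl-F1 spermatozoa, 15 and 10 for KO-F1, and 2848 and 3810 for KO-F2. The KO-F2 libraries lay far above the others, and the 2 KO-F1 libraries lay above the 2 Ctrl-F1 libraries, of which 1 was under the limit of detection. As levels these are 1.74 ± 1.30 CPM (SD, n = 2) in Ctrl-F1, 5.10 ± 0.427 CPM in KO-F1 and 351 ± 146 CPM in KO-F2. The pooled counts gave a level 65.3 times that of KO-F1 (exact 95% interval 44.2 to 101) and 220 times that of Ctrl-F1 (101 to 599), and 3.37 times more in KO-F1 than in Ctrl-F1 (1.35 to 10.0). These intervals cover counting error only, since amplified reads are not independent molecules. The fitted log2 fold change was 6.51 ± 0.48 (SE) for KO-F2 against KO-F1 and 7.63 ± 0.68 for KO-F2 against Ctrl-F1, fits that share their KO-F2 libraries. In liver Fn1 had 18333 and 15276 counts for Ctrl-F1 and 12408 and 11591 for KO-F1, or 1187 ± 138 and 1018 ± 5.21 CPM. Both KO-F1 livers were lower in CPM, with a fitted log2 fold change of -0.16 ± 0.18 (edgeR quasi-likelihood, adjusted p = 0.814), which did not pass the test. The sign of this fitted value turned without Ctrl-F1 replicate 1. Albumin, which marks hepatocytes, had 2 and 0 counts for Ctrl-F1 spermatozoa and 0 in each of the KO-F1 and KO-F2 sperm libraries. The other 11 genes of the hepatocyte list summed to 32.1 and 42.6, 26.6 and 41.7, and 145 and 288 CPM, higher in both KO-F2 libraries. Only 1 of the 12 genes of the list passed the filter on low counts in each sperm comparison, so the sum does not describe the list as a whole. The part of these genes in the Fn1 values was not tested.

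Sparc, the leading matrix transcript of F1 spermatozoa, ran the other way. It had 472 and 841 counts for Ctrl-F1, 762 and 1207 for KO-F1, and 574 and 1276 for KO-F2 spermatozoa, which is 377 ± 258, 427 ± 215 and 101 ± 72.2 CPM (SD, n = 2). The KO-F2 libraries (50.1 and 152 CPM) lay below every F1 library (194 to 579 CPM), and Ctrl-F1 and KO-F1 overlapped. In bulk libraries such a lower level cannot be told apart into fewer cells of a type and less RNA per cell. Bgn had 162 and 188 counts for Ctrl-F1, 392 and 121 for KO-F1, and 211 and 223 for KO-F2 spermatozoa, or 95.9 ± 41.2, 99.6 ± 58.7 and 22.5 ± 5.79 CPM. Again the F1 groups overlapped and KO-F2 was below both, with fitted log2 fold changes of -1.71 ± 0.45 against KO-F1 and -2.29 ± 0.49 against Ctrl-F1. The values of Sparc were -1.71 ± 0.60 and -2.12 ± 0.74. Lum and Fbn1 were scarce. Lum had 0 and 15 counts for Ctrl-F1, 0 and 5 for KO-F1 and 11 and 26 for KO-F2 spermatozoa, and Fbn1 had 6 and 15, 6 and 13, and 21 and 85. All 3 groups overlapped for Lum and for Fbn1 in CPM, and counts of 0 in 2 of the F1 libraries leave Lum unresolved there.

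Of collagens I and III, the main chains of interstitial fibres, Col1a1 lay below every F1 library in KO-F2 spermatozoa, while Col3a1 and Col1a2 overlapped with F1 libraries. Col3a1 had 155 and 145 counts for Ctrl-F1, 101 and 277 for KO-F1, and 202 and 396 for KO-F2 spermatozoa. Its level was 80.1 ± 23.0, 84.6 ± 68.2 and 32.4 ± 20.9 CPM, so KO-F2 lay below Ctrl-F1 and overlapped with KO-F1. Col1a1 had 80 and 104, 80 and 146, and 86 and 126 counts, or 51.1 ± 25.6, 49.4 ± 29.1 and 11.3 ± 5.32 CPM. Both KO-F2 libraries were under all F1 libraries for Col1a1, with log2 fold changes of -1.76 ± 0.59 against KO-F1 and -2.38 ± 0.61 against Ctrl-F1. For Col1a2, the partner chain of Col1a1 in type I collagen, the counts were 56 and 81, 64 and 121, and 128 and 200, and the log2 fold changes were -0.83 ± 0.60 and -1.34 ± 0.64, with overlapping libraries. Col5a1, a minor chain inside type I fibrils, was uneven, with 17 and 16 counts for Ctrl-F1, 9 and 100 for KO-F1 and 29 and 67 for KO-F2. A single KO-F1 library thus held most of its F1 counts. Col5a2 had 1 and 2, 17 and 5, and 0 and 3 counts. Col2a1, the cartilage collagen, had at most 31 counts in any sperm library, and Col11a1, Col11a2, Col24a1, Col27a1 and Col5a3 at most 10. Col27a1 and Col5a3 had 131 to 194 and 84 to 120 counts in each liver and at most 3 and 2 counts in each sperm library.

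Type VI collagen held a similar place. Col6a1 had 145 and 124 counts for Ctrl-F1, 98 and 256 for KO-F1, and 100 and 218 for KO-F2 spermatozoa, which is 71.1 ± 16.1, 79.0 ± 61.9 and 17.4 ± 12.2 CPM. Col6a2 had 86 and 58, 140 and 174, and 103 and 123 counts, or 37.0 ± 2.22, 66.9 ± 23.4 and 11.8 ± 4.02 CPM. Both chains were lower in the KO-F2 libraries than in every F1 library, by log2 fold changes against KO-F1 of -1.83 ± 0.73 and -2.11 ± 0.46, and Col6a2 was higher in both KO-F1 than in both Ctrl-F1 libraries. Col6a3, the third chain of the common type VI heterotrimer, had 0 counts in both Ctrl-F1 libraries, 4 and 2 for KO-F1 and 3 and 0 for KO-F2, against 26 to 32 in each liver. The epithelial chains Col6a4 and Col6a5 had 39 and 34 and 45 and 56 counts for KO-F2 spermatozoa. Col6a4 had 22 and 0 counts for Ctrl-F1 and none in KO-F1, where the floor of 3 counts in each library makes the KO-F2 level at least 2.96-fold higher. Col6a5 had 3 and 0 counts for Ctrl-F1 and 0 and 8 for KO-F1. Col6a6 had at most 5 counts in any library.

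The genes Col3a1 and Bgn, lower in KO-F2 than in Ctrl-F1 spermatozoa, are shown with the 250 bases upstream of their start (RefSeq, GRCm38.p6), because they shared a direction and their promoters are unlike each other. Capitals mark the motifs searched on both strands, the TATA box TATAAA, the CCAAT box and the GC box GGGCGG. The Col3a1 window is chr1:45311288-45311537 (plus strand), with 1 TATAAA and 0 CpG dinucleotides, and the Bgn window is chrX:73483351-73483600 (plus strand), with matches to GGGCGG on the reverse strand, printed in the capitals as its reverse complement and overlapping at the end of the window, and 7 CpG.
Col3a1: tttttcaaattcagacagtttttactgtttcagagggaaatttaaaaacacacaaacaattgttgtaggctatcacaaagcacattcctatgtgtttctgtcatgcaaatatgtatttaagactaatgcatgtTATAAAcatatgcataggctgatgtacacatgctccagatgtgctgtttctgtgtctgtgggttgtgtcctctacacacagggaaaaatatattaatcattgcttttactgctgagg
Bgn: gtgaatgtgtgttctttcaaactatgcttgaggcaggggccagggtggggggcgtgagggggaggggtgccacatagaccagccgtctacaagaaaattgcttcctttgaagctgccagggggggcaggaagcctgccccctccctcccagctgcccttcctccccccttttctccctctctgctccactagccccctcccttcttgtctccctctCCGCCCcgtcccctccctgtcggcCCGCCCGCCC
Col3a1 is AT-rich, with 35.2% G and C, and Bgn has 64.4%. Of the 49 genes 38 had an entry in the promoter table, with 41 windows. TATAAA stood in 5 of these windows and in 12.4% of all 32851 windows, CCAAT in 13 and in 33.8%, and GGGCGG in 24 and in 32.7%. The median window of the matrix genes had 9 CpG and 59.2% G and C, and that of all genes 6 CpG and 52.4%. These are matches of letters in a window and say nothing of binding. No window was given for Fn1, Lum, Col1a1 or Col9a3.

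Of the type IV collagens, which form the basement membrane sheet, Col4a1 and Col4a2 had the most counts in each liver. Col4a1 had 237 and 256 counts for Ctrl-F1 liver and 153 and 262 for KO-F1 liver, and Col4a2 had 272 and 235 and 141 and 316. The 2 KO-F1 livers disagreed for both chains, replicate 1 being below and replicate 2 above the Ctrl-F1 livers. In spermatozoa Col4a1 had 0 and 0 counts for Ctrl-F1, 7 and 13 for KO-F1, and 12 and 18 for KO-F2, while Col4a2 had 14 and 3, 23 and 20, and 94 and 52. The genes of type IV collagen lie head to head in pairs. Col4a1 (minus strand) starts at 11312826 and Col4a2 (plus strand) at 11312805 of chromosome 8, so their first exons overlap by 22 bases in the annotation (GENCODE vM21), and reads of that stretch cannot be told apart without strand. Col4a4 and Col4a3 start 71 bases apart on chromosome 1, at chr1:82586850-82586920, and that whole interval is shown (plus strand of GRCm38.p6, from the RefSeq window of Col4a4) because both genes start at its edges.
Col4a4 to Col4a3: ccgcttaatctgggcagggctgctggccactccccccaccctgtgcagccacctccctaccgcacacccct
The interval has 2 CpG. Both genes were rare on either side of it, with 10 to 14 counts of Col4a3 and 1 to 4 of Col4a4 in each liver and at most 8 of either in any sperm library. Col4a6 and Col4a5, 1308 bases apart on the X chromosome, had 0 to 4 and 8 to 25 counts in each liver. In KO-F2 spermatozoa they had 16 and 21, and 4 and 24, and at most 6 in each F1 library. For Col4a5 the KO-F2 libraries (0.349 and 2.86 CPM) overlapped with those of KO-F1 (0 and 2.88 CPM). In CPM Col4a6 was higher in KO-F2 spermatozoa (1.95 ± 0.784) than in either liver group (0.143 ± 0.202 and 0.176 ± 0.249).

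Of the 16 matrix genes fitted in KO-F1 against Ctrl-F1 spermatozoa, a pair of FACIT collagens, Col9a3 and Col16a1, had the largest differences. Col9a3 (chromosome 2), a chain of the type IX collagen of cartilage, had 146 and 49 counts for Ctrl-F1, 28 and 25 for KO-F1 and 413 and 286 for KO-F2 spermatozoa, or 46.4 ± 19.5, 11.03 ± 1.35 and 35.1 ± 1.36 CPM (SD, n = 2). KO-F1 was below both other groups, which overlapped, and the log2 fold changes were -2.48 ± 0.62 for KO-F1 against Ctrl-F1 and 2.09 ± 0.42 for KO-F2 against KO-F1. Its partner chains were nearly silent, Col9a1 with 8 and 6 counts and Col9a2 with 1 and 0 for KO-F2 and none in any other library. Col20a1, also on chromosome 2, had 78 and 11, 35 and 26, and 545 and 367 counts, or 19.7 ± 17.6, 12.5 ± 0.0919 and 45.7 ± 2.67 CPM. Here KO-F2 was above all F1 libraries, by 2.29 ± 0.38 against KO-F1 and 1.07 ± 0.62 against Ctrl-F1 in log2. Col9a3 and Col20a1 had at most 2 and 11 counts in each liver. The list of 18 spermatid and spermatozoon markers was 141868 and 126759 CPM for Ctrl-F1, 62645 and 47433 for KO-F1 and 163013 and 162563 for KO-F2, low in the same group as Col9a3. Its part in these values was not tested. Col14a1 had 181 to 392 counts in each liver and 2 and 18, 12 and 34, and 85 and 69 counts in spermatozoa. In CPM its tissues overlapped, with 16.3 in a KO-F1 sperm library and 16.0 in a KO-F1 liver. Col22a1 had 39 and 125 counts for KO-F2 and at most 10 in each F1 library. In CPM its KO-F2 libraries (3.40 and 14.9) overlapped with those of Ctrl-F1 (1.65 and 6.65). Col16a1 had 19 and 13, 5 and 0, and 37 and 19 counts (log2 fold change -3.55 ± 1.63 for KO-F1 against Ctrl-F1). Col12a1 had 1 to 24 counts in each sperm library, and Col19a1 was counted in 1 KO-F1 library only, with 4 counts.

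**Figure D2:**
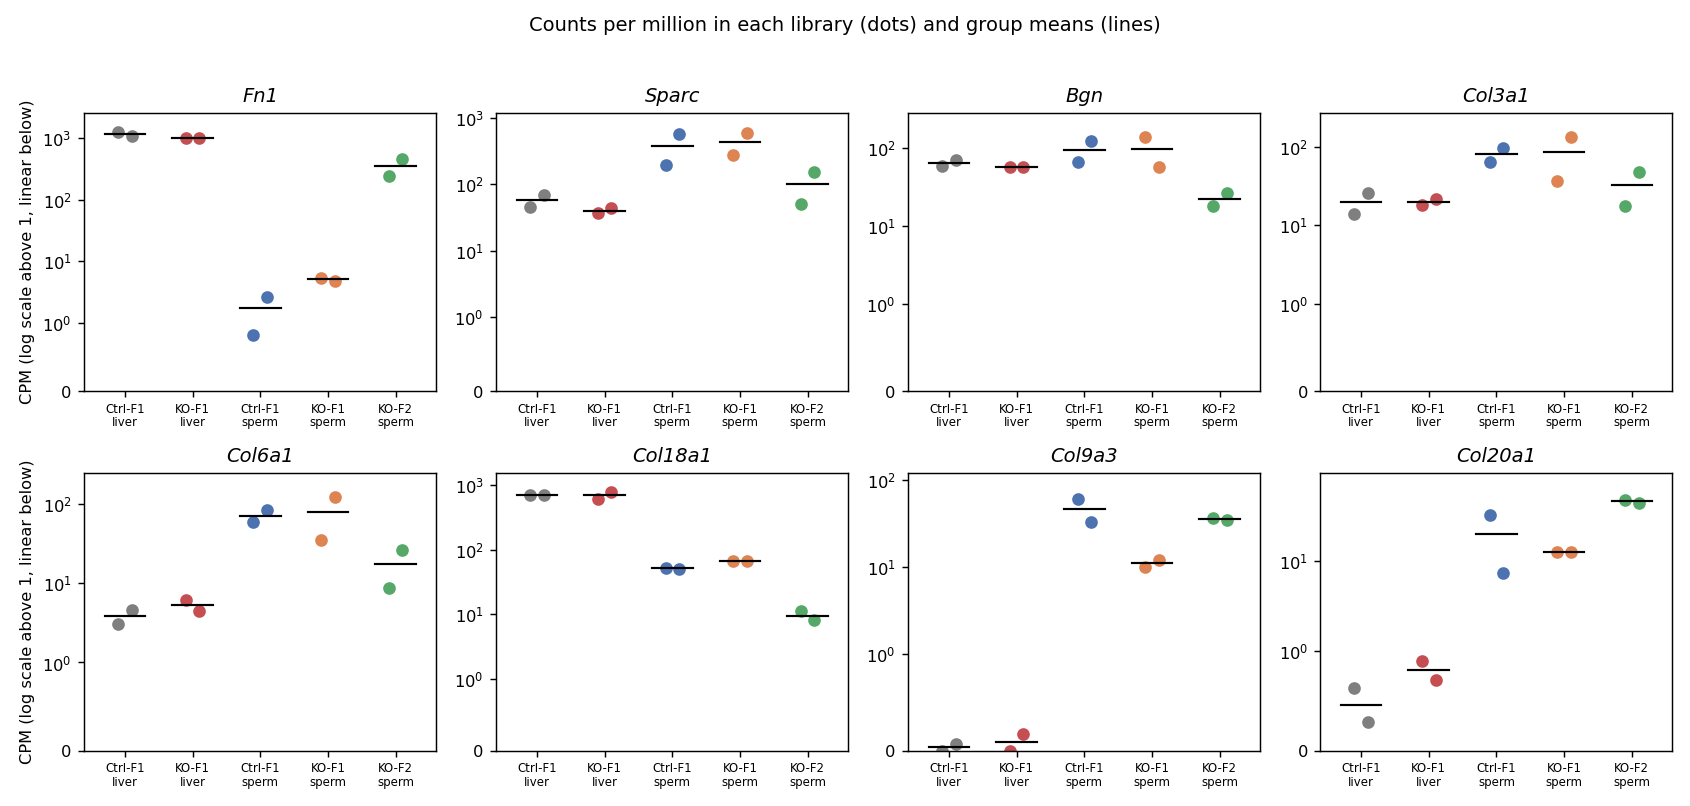
CPM of 8 matrix genes in each library (dots, 2 per group), with the group mean as a line. The axis is logarithmic above 1 CPM and linear below. In spermatozoa, Fn1 is high in KO-F2 alone, Sparc, Bgn, Col6a1 and Col18a1 are lowest in KO-F2, and Col9a3 is lowest in KO-F1.

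Col18a1, whose C-terminal fragment is endostatin, and its relative Col15a1 belong to the multiplexins of basement membrane zones. Col18a1 made up most of the collagen counts of liver, with 10029 and 9736 counts for Ctrl-F1 and 7513 and 8719 for KO-F1, or 698 ± 5.74 and 692 ± 109 CPM. In spermatozoa it had 127 and 76, 187 and 140, and 127 and 67 counts, or 51.4 ± 1.27, 67.2 ± 0.123 and 9.54 ± 2.18 CPM. The 3 sperm groups did not overlap for Col18a1 in CPM. After TMM scaling the KO-F1 value against Ctrl-F1 was -0.06 ± 0.44, opposite in sign to the CPM, and its log2 fold changes in KO-F2 were -2.39 ± 0.39 against KO-F1 and -2.59 ± 0.41 against Ctrl-F1. Col15a1 had 52 to 100 counts in each liver and 1 to 21 in each sperm library.

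The remaining classes were rare, and the KO-F2 sperm libraries are the deeper ones. Col8a2, a chain of the hexagonal networks below endothelia, had 36 and 101 counts there, none in KO-F1 and 4 and 0 for Ctrl-F1. Col7a1, the anchoring fibril collagen of stratified epithelia, had 11 and 8 counts for KO-F2 and none in the other 8 libraries. Col28a1 had 13 and 10 counts for KO-F2, 2 in 1 KO-F1 liver and none elsewhere. At the totals of the F1 sperm libraries, 3 counts stand for 1.08 to 2.00 CPM. The KO-F2 levels of Col8a2 (3.14 and 12.0 CPM) are both above this limit in each of them. The KO-F2 level of Col7a1 (0.957 ± 0.0039 CPM) is under this limit in each F1 library. That of Col28a1 (1.16 ± 0.0414 CPM) is above the limit of 1.08 CPM in 1 KO-F1 library and under that of the other 3. Col26a1 had 29 and 19 counts for KO-F2 and at most 5 in each other library, and overlapped with KO-F1 in CPM. Of the transmembrane collagens Col23a1 had 10 and 6, 15 and 2, and 45 and 47 counts in spermatozoa, overlapping in CPM, and Col13a1, Col17a1 and Col25a1 had at most 5 in any sperm library. Col10a1 was counted in 1 KO-F1 liver only, with 4 counts, and Col8a1 in 1 Ctrl-F1 liver with 7 and in KO-F2 spermatozoa with 4 and 2.

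In liver, which addresses whether the father's loss of Scml2 is seen in a somatic tissue, 26 of the 49 genes passed the filter on low counts and none was called by edgeR's quasi-likelihood test (at least 2-fold, adjusted p under 0.01). Over all 11505 genes 0.0% were called, 1083 having an unadjusted p under 0.05. DESeq2 called 0.271% of 7379 genes and 0 of the 9 matrix genes to which it gave an adjusted p. Of the 26, 16 had a positive and 10 a negative log2 fold change, with a median of 0.08 beside -0.01 over all genes. The sign of this median turned without KO-F1 replicate 2. Col1a1 was the one with an unadjusted p under 0.05. It had 35 and 24 counts for Ctrl-F1 and 44 and 64 for KO-F1 liver, higher in both KO-F1 livers by a log2 fold change of 1.21 ± 0.45 (edgeR adjusted p = 0.508). Its partner Col1a2 had 86 and 122 and 99 and 93 counts, with 0.22 ± 0.27 and overlapping livers (adjusted p = 0.826). Sparc had 650 and 971 counts for Ctrl-F1 and 449 and 488 for KO-F1, lower in both KO-F1 livers, with a log2 fold change of -0.45 ± 0.21 (edgeR adjusted p = 0.55). Col14a1 was lower in both KO-F1 livers as well, with -0.39 ± 0.21 (adjusted p = 0.592). The values were -0.11 ± 0.15 for Bgn, 0.05 ± 0.18 for Col18a1, 0.10 ± 0.27 for Col3a1, 0.11 ± 0.29 for Col4a1, 0.21 ± 0.38 for Col4a2, 0.07 ± 0.23 for Col27a1, -0.40 ± 0.42 for Lum and 0.37 ± 0.59 for Fbn1. Those of Col18a1, Col3a1, Col4a1, Col4a2 and Col27a1 turned sign with single libraries left out. Col6a1 and Col6a2 had 0.53 ± 0.35 and 0.76 ± 0.50. None of these differences passed the test after adjustment over all genes. The markers of hepatic stellate cells, which make most of the liver's fibrillar collagen, summed to 61.7 and 98.4 CPM for Ctrl-F1 and 61.6 and 59.9 CPM for KO-F1, and their part in these values was not tested.

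In spermatozoa, 16 matrix genes passed the filter for KO-F1 against Ctrl-F1, with 5 positive and 11 negative values and a median log2 fold change of -0.31 beside 0.02 over all genes. Its direction rested on single libraries, with -1.21 without KO-F1 replicate 2 and 0.37 without Ctrl-F1 replicate 2. edgeR called 0.0% of 10785 genes and none of the 16, with 2105 genes and 1 of the 16 (Col9a3) at an unadjusted p under 0.05, and DESeq2 called 7.68% of 5077 genes and 0 of 9. For KO-F2 against Ctrl-F1, 26 passed, 9 positive and 17 negative, with a median of -0.64 beside 0.07 (-1.94 without KO-F2 replicate 2, 0.26 without Ctrl-F1 replicate 2). edgeR called 0.0% of 13149 genes and none of the 26, 8 of the 26 and 1960 of all genes having an unadjusted p under 0.05. DESeq2 called 2.15% of 12885 genes (1.16% higher, 0.993% lower) and 3 of 24, Fn1 higher and Bgn and Col18a1 lower. For KO-F2 against KO-F1, 29 passed, 14 positive and 15 negative, with a median of -0.01 beside 0.13 (-1.39 without KO-F2 replicate 2, 1.12 without KO-F1 replicate 2), and 2 of them had no count in KO-F1. edgeR called 2.31% of 13517 genes (2.11% higher) and Fn1 alone of the 29, a call that was lost with library totals in place of TMM (log2 fold change 6.10). DESeq2 called 13.6% of 15085 genes (9.29% higher, 4.36% lower) and 8 of 31, Fn1, Col20a1, Col9a3 and Col8a2 higher and Col18a1, Bgn, Col6a2 and Sparc lower. The members were chosen on these spermatozoa and passed the filter partly through the group in which they are high, so these calls are made on the values that chose the members, describe them only, and are not read against the background. The comparisons share their control or their KO-F2 libraries and are given side by side only.

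**Figure D3:**
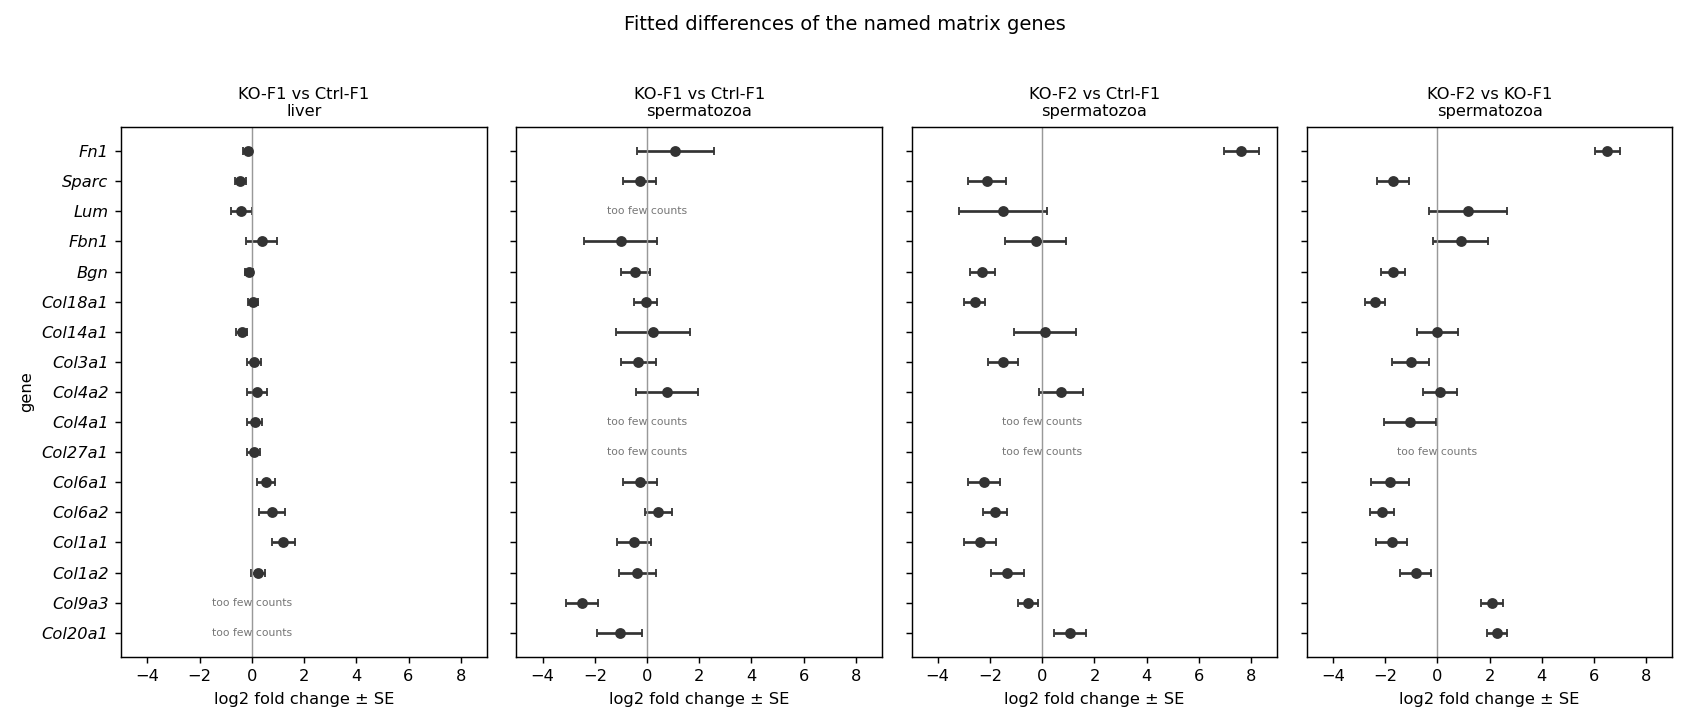
Fitted log2 fold change (dot) and standard error (bar) of the 17 named matrix genes in the 4 comparisons, with genes below the count filter marked as too few counts. Fn1 stands at 7.63 and 6.51 in both KO-F2 comparisons, and Col18a1, Bgn, Sparc and Col6a2 stand below 0 there, while in liver the values of these genes other than Col1a1 lie between -0.45 and 0.76.

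Partner chains of 1 collagen gave a measure within each library that does not depend on its total. Of the counts of Col1a1 and Col1a2 together, Col1a1 took 58.8 and 56.2% for Ctrl-F1, 55.6 and 54.7% for KO-F1, and 40.2 and 38.7% for KO-F2 spermatozoa. The replicates lay close together, and the pooled exact 95% binomial intervals were 51.7 to 62.8% in Ctrl-F1, 50.0 to 59.9% in KO-F1 and 35.1 to 43.5% in KO-F2. These intervals cover the counting of reads, not the spread between animals, and are no test between groups. In liver, Col1a1 took 28.9 and 16.4% for Ctrl-F1 and 30.8 and 40.8% for KO-F1. Col6a1 as a share of Col6a1 and Col6a2 was lower in both KO-F1 than in both Ctrl-F1 sperm libraries, and KO-F2 overlapped with both groups, with 62.8 and 68.1% for Ctrl-F1, 41.2 and 59.5% for KO-F1 and 49.3 and 63.9% for KO-F2. Col4a1 as a share of Col4a1 and Col4a2 was 45.3 to 52.1% in the 4 livers and 11.3 and 25.7% for KO-F2 spermatozoa. In Ctrl-F1 spermatozoa it was 0 of 17 counts, which allows up to 19.5%, and in KO-F1 spermatozoa 31.7% of 63 counts (20.6 to 44.7%). Liver and sperm libraries were made with different kits, so their shares are set side by side only.

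**Figure D4:**
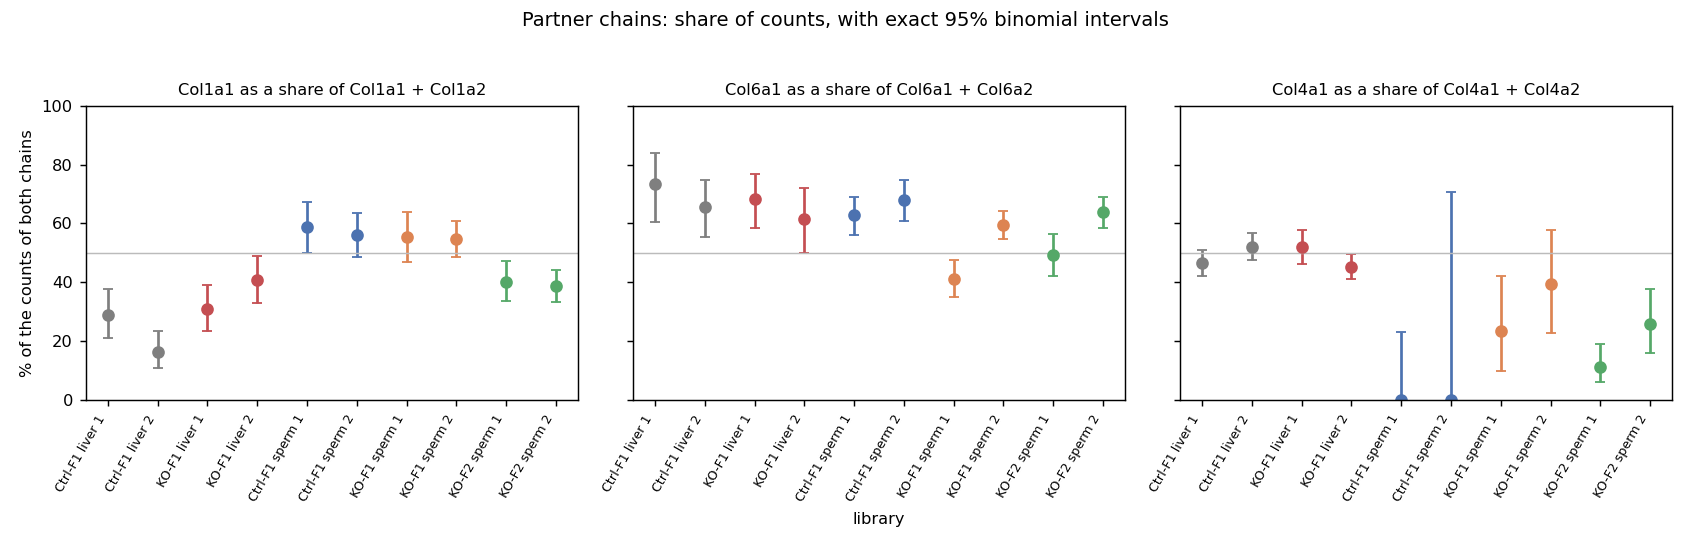
Share of the first chain in the counts of 3 pairs of partner chains, in each library (dot) with its exact 95% binomial interval (bar), and a grey line at equal counts. Col1a1 lies between 54.7 and 58.8% in F1 spermatozoa and at 40.2 and 38.7% for KO-F2, whereas Col6a1 spreads more widely between the replicates of KO-F1 and of KO-F2 spermatozoa.

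Genes that act with the matrix proteins were followed in 7 lists. In liver edgeR called none of the 105 list genes that passed the filter, and the same held for 87 genes in KO-F1 against Ctrl-F1 spermatozoa and 106 in KO-F2 against Ctrl-F1 spermatozoa. In each of these comparisons it called 0.0% of all genes. In KO-F2 against KO-F1 spermatozoa it called 2 of 113 (2.31% of all genes), both higher and both of the list of elastic fibre and matricellular genes. With library totals in place of TMM the count was 0, with all 3 sperm groups in 1 model it was 1, and with no filter on low counts it was 17. The share of all genes called under these alternatives was not computed. Comp, a cartilage matrix protein that binds collagen, had 302 and 100 counts for Ctrl-F1, 75 and 72 for KO-F1 and 2201 and 1780 for KO-F2 spermatozoa, with a log2 fold change of 3.13 ± 0.35 against KO-F1. Emilin2, an elastin-microfibril glycoprotein, had 28 and 0, 16 and 23, and 626 and 880 counts, with 3.66 ± 0.53. Like Col9a3, Comp was lower in both KO-F1 than in both Ctrl-F1 sperm libraries in CPM, with a DESeq2 log2 fold change of -2.01 ± 0.59, the single list gene of 33 that DESeq2 called there (7.68% of all genes). In KO-F2 against Ctrl-F1 it called 5 of 109 (2.15% of all genes), Plaur, Sdc3 and Thbs1 higher and Mfap4 and Mmp7 lower. DESeq2 called 9 of 136 list genes in KO-F2 against KO-F1 (13.6% of all genes), 7 of them higher (Cd44, Comp, Ecm1, Emilin2, Ltbp1, Plaur and Spp1) and 2 lower (Mfap4 and Mmp24).

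The remaining lists held no edgeR call in any comparison, and their most abundant genes are given for KO-F2 against KO-F1 spermatozoa. The median log2 fold change of the 7 lists ran from -0.98 (matrix proteases and inhibitors, 5 positive and 12 negative) to 0.41 (matrix receptors, 11 positive and 8 negative), beside 0.13 over all genes. Of the small leucine-rich proteoglycans, Dcn, the decorin of collagen fibrils, had 1268 and 2635 counts for KO-F2 and 734 and 710 for KO-F1, with a log2 fold change of -0.12 ± 0.49, and Ogn had -0.72 ± 0.58. The Bgn value beside it, of the same family, was -1.71 ± 0.45. Of the basement membrane list, Nid1, which links laminin to type IV collagen, had -1.18 ± 0.49 and Egflam -0.57 ± 0.61. Of the collagen processing list, P4hb, the disulfide isomerase subunit of prolyl hydroxylase, and Ppib, a prolyl isomerase, had -0.69 ± 0.45 and -0.57 ± 0.30. Among the matrix receptors, Itgb1, the shared beta subunit of collagen and fibronectin integrins, had 0.22 ± 0.37 and Sdc3 2.92 ± 1.10. Ctsb, a lysosomal protease, had 0.95 ± 0.51 and Timp2, a protease inhibitor, 0.72 ± 0.72. Of the TGF-beta list, Smad4 had -1.01 ± 0.37 and Ski -0.69 ± 0.37. In liver the adjusted p of all list genes was 0.477 or more, the lowest that of Tsku, a secreted leucine-rich protein, with 2076 and 2520 counts for Ctrl-F1 and 1009 and 1227 for KO-F1 (-0.69 ± 0.19).

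Several lists of markers of other cell types also differed between the sperm groups in their sums. The fibroblast list (12 genes) summed to 342 and 872 CPM for Ctrl-F1, 655 and 1142 for KO-F1 and 257 and 454 for KO-F2, and the epididymal epithelium list (24 genes) to 22480 and 9514, 12673 and 15643, and 4519 and 3368 CPM. The lower KO-F2 levels of Sparc, Bgn, Col1a1, Col6a1, Col6a2 and Col18a1 thus stood beside lower sums of the epithelial list in each KO-F2 library. This held also without Crisp1, the leading gene of that list (4225 and 4065, 3446 and 4100, and 1663 and 2107 CPM). The fibroblast sums of KO-F2 and Ctrl-F1 overlapped, but most fibroblast genes fitted were lower in KO-F2. Their median log2 fold change was -1.09 against Ctrl-F1 (2 positive, 8 negative) and -1.23 against KO-F1 (3 positive, 7 negative). The epithelial list had medians of -0.92 (5 positive, 13 negative) and -1.41 (5 positive, 14 negative), beside 0.07 and 0.13 over all genes. The smooth muscle and myoid list (12 genes) had a higher sum in KO-F2, with 152 and 170, 150 and 233, and 313 and 302 CPM. Without Actg2, its leading gene, the sum was 63.9 and 121, 131 and 197, and 44.1 and 78.2 CPM. Most of its fitted genes were lower in KO-F2, 6 of 8 against Ctrl-F1 (median -0.84) and 8 of 10 against KO-F1 (median -0.90). The epithelial list had 3, 4 and 1 of its genes at 0 in Ctrl-F1, KO-F1 and KO-F2, and the fibroblast list 2, 0 and 0. The part of these markers in the result was not tested. With Fn1 moved the macrophage list (18 genes, none at 0 in KO-F2), which without Cd52, a gene also made by epididymal epithelium, summed to 290 and 714 CPM for Ctrl-F1, 410 and 515 for KO-F1 and 2888 and 4898 for KO-F2. Of its genes, 1 was at 0 for Ctrl-F1 and 2 for KO-F1. With Cd52 the sums were 7009 and 3100, 31115 and 12649, and 5918 and 6309 CPM. In KO-F2 against KO-F1, 17 of the 18 had a positive and 1 a negative log2 fold change and edgeR called 6 (2.11% of all genes were called higher). Against Ctrl-F1, 16 were positive and 2 negative, and edgeR called 0 (0.0% of all genes). Lyz2, the lysozyme of macrophages, had 116 and 404, 273 and 378, and 21877 and 26974 counts, and Cd5l, Vsig4 and Timd4, genes of resident macrophages, were 425 and 882, 91 and 411, and 126 and 333 for KO-F2 and at most 1 in each F1 library. The mast cell list (10 genes, none at 0 in KO-F2) without Gata2 summed to 24.3 and 27.3, 22.7 and 13.4, and 465 and 233 CPM. Of the whole mast cell list, edgeR called 4 of 9 fitted genes higher against KO-F1 and 0 of 10 against Ctrl-F1. The Kupffer cell list without C1qb summed to 47.4 and 139, 78.5 and 89.2, and 196 and 490 CPM. Of the 12 genes of the hepatocyte list 9, 8 and 4 were at 0. Whether Fn1 came from the cells that carry these markers was not tested.

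**Figure D5:**
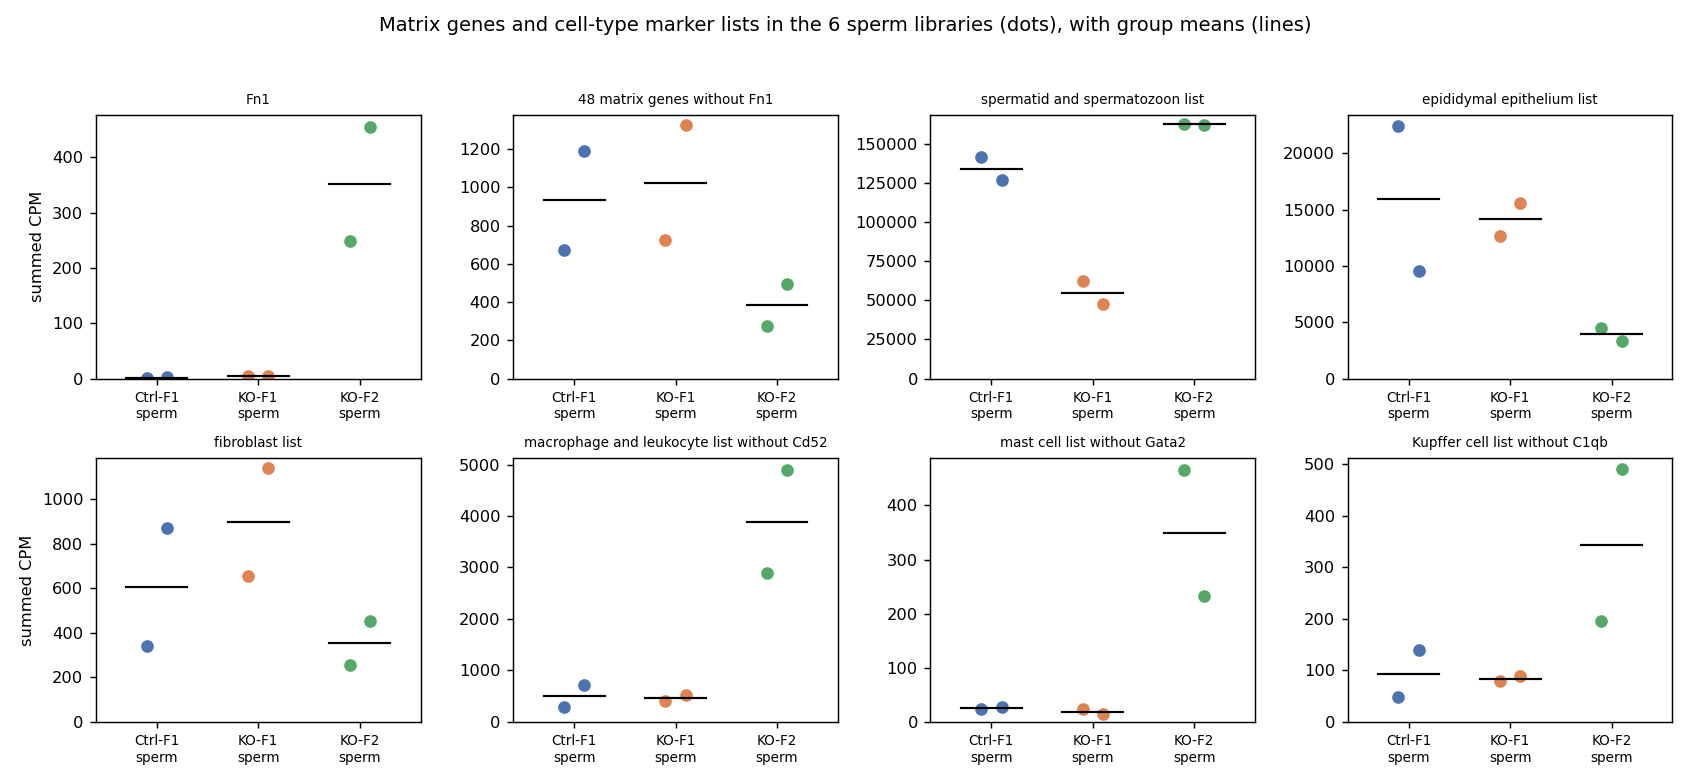
Summed CPM in the 6 sperm libraries (dots, 2 per group) with group means (lines), for Fn1, for the 48 other matrix genes and for 6 marker lists (the macrophage list without Cd52, the mast cell list without Gata2, the Kupffer cell list without C1qb), each panel on its own axis from 0. Fn1 and these 3 lists without those genes are high in KO-F2, and the spermatid list is low in KO-F1. The sums of the other matrix genes and of the epididymal list are low in KO-F2, although single matrix genes went both ways.

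Within groups, replicate 2 was the higher for most of the matrix genes compared, while others went the other way. These numbers were not computed over all genes, so whether this is particular to the matrix genes was not tested. Of the genes with more than 3 counts in both libraries, replicate 2 was the higher in CPM for 12 of 16 in Ctrl-F1, 13 of 19 in KO-F1 and 24 of 33 in KO-F2 spermatozoa, with a median log2 difference between replicates of 0.60, 1.08 and 0.71. In liver it was higher for 19 of 27 and 17 of 27, with 0.29 and 0.18. The sperm differences reached 3.89 for Col5a1 in KO-F1. With 2 libraries a group an exact permutation test cannot give a two-sided p below 0.333.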

How the data were processed

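Reads per gene were measured in 4 liver and 6 sperm libraries. Reads were 75 bp long from 1 end. The authors mapped them to mm10 (GRCm38) by HISAT2 2.1.0 and deposited raw counts per gene symbol from featureCounts; the annotation and strand setting are not given in the sources used here. Liver libraries were stranded poly(A) libraries, and sperm libraries were amplified cDNA, so intervals and detection limits cover counting error only. The 2 symbols that stood on 4 lines were left out, which kept 23416 genes. Members and lists were chosen with earlier results of these data known. CPM used library totals; levels per kb used exon lengths of GENCODE vM21. Groups were compared with edgeR 4.0.16 in R 4.3.3 (TMM, filterByExpr, quasi-likelihood F test, Benjamini-Hochberg adjustment over all genes tested; called at 2-fold and adjusted p under 0.01), fitted on the libraries compared. The SE of an edgeR value was worked back from its test, as the size of the log2 fold change over the square root of F. The SE of a DESeq2 value is the one DESeq2 estimates, so the 2 kinds are not the same measure. DESeq2 1.42.0, other scalings, filters, thinning, the replicate block and leaving out each library were alternatives. Named genes were the 5 non-collagens, the 6 and 8 collagens with the highest mean CPM in liver and in spermatozoa, and every member called; list genes were those called (at most 4) or otherwise the 2 highest in mean CPM. Other members are named as the account of the whole set. Replicates are separate samples in the labels; the p-values measure the spread between these samples.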

Additional observations from a re-analysis of the deposited data

Results flagged for a closer look

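Fn1 differed in direction between tissues under the same contrast. In liver both KO-F1 libraries were below both Ctrl-F1 libraries, with a log2 ratio of mean CPM of -0.22, and in spermatozoa both KO-F1 libraries were above both Ctrl-F1 libraries, with a log2 ratio of 1.55. The fitted liver value was -0.16 ± 0.18 (edgeR adjusted p = 0.814) and turned to 0.025 without Ctrl-F1 replicate 1. The difference between tissues was not tested, the sperm values rest on 2, 4, 15 and 10 counts, and the liver and sperm libraries were made with different kits.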

How the results depend on the processing

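In liver no matrix gene and no list gene was called under any alternative. The alternatives below were set with earlier results of these data known. The share of all genes called was computed for the main fit and DESeq2 only. It was 0.0 and 2.15% in KO-F2 against Ctrl-F1 spermatozoa, and 2.31 and 13.6% in KO-F2 against KO-F1. Under the other alternatives no such share stands beside the counts, so they are not read as results about the matrix or list genes. Against a count of 0 called matrix genes in KO-F2 against Ctrl-F1 spermatozoa, DESeq2 called 3, no filter 1, the replicate block 7, all 3 sperm groups in 1 model 1, and leaving out each library in turn 1 to 2 (2 without either Ctrl-F1 library, 1 without either KO-F2 library). In KO-F2 against KO-F1 (1 called), DESeq2 called 8, library totals without TMM 0, no filter 10, at least 10 counts in every library 6, the replicate block 3, thinning to the smallest library 2, an adjusted p under 0.05 8, and leaving out each library 1 to 7 (7 without either KO-F1 library). Each such fit has 1 library in an arm, which is assumed to vary like the 2 of the other group that alone give the spread. List genes called went from 0 to 1 with DESeq2 in KO-F1 against Ctrl-F1 spermatozoa. In KO-F2 against Ctrl-F1 they went from 0 to 5 with DESeq2, 1 with no filter, 10 with the replicate block and 2 to 6 leaving out each library (6 without Ctrl-F1 replicate 2). In KO-F2 against KO-F1 they went from 2 to 9 with DESeq2, 0 with library totals, 17 with no filter, 5 with at least 10 counts, 4 with the replicate block, 4 with thinning, 1 with all 3 groups, 15 at an adjusted p under 0.05 and 2 to 19 leaving out each library (13 and 19 without KO-F1 replicate 1 and 2, 3 without KO-F2 replicate 1). The median of the matrix genes in liver was -0.14 without KO-F1 replicate 2 and up to 0.25 without replicate 1. In KO-F1 against Ctrl-F1 spermatozoa it ranged from -1.21 (without KO-F1 replicate 2) to 0.37 (without Ctrl-F1 replicate 2). In KO-F2 against Ctrl-F1 it was -0.14 with DESeq2, 0.16 with no filter, -1.66 with at least 10 counts, -1.48 with thinning, and -1.94 (without KO-F2 replicate 2) to 0.26 (without Ctrl-F1 replicate 2). In KO-F2 against KO-F1 it was 0.75, -0.82 and -1.03 with no filter, at least 10 counts and thinning, and -1.39 (without KO-F2 replicate 2) to 1.12 (without KO-F1 replicate 2). The number of genes in these medians changes with the filter and the libraries. Collagens summed to 817 CPM in Ctrl-F1 liver with TMM (835 without), and to 525 CPM in Ctrl-F1 spermatozoa with TMM and 599.8 without Rn45s (448 with library totals). Signs turned in liver, none called, for Fn1 (-0.32 to 0.025 leaving out each library, positive without Ctrl-F1 replicate 1), Col18a1 (-0.014 with library totals, -0.16 without KO-F1 replicate 2 and 0.25 without replicate 1), Col3a1 (-0.23 without Ctrl-F1 replicate 1, -0.08 without KO-F1 replicate 2, at most 0.53), Col4a2 and Col4a1 (-0.61 and -0.45 without KO-F1 replicate 2, 0.52 for Col4a1 without replicate 1) and Col27a1 (-0.0064 with library totals, -0.02 and -0.20 without Ctrl-F1 replicate 1 and KO-F1 replicate 2, at most 0.31). The cause was not tested. Same-numbered libraries are different animals, and their deviations correlated at -0.102, -0.0089, 0.135 and 0.0562, so the replicate block pairs nothing but numbers. Crossing the numbers in liver, chosen after seeing the data, called 0 matrix genes and 0 list genes. F1 sperm totals limit detection to 1.08 to 2.00 CPM.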
